A study of Mus musculus with 16 samples.

Results

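The 10 genes of the cyclin D, CDK and CDK inhibitor families that govern passage through G1 were followed through foetal liver erythropoiesis. They are the D-type cyclin genes *Ccnd1*, *Ccnd2* and *Ccnd3*, the cyclin-dependent kinase (CDK) genes *Cdk4* and *Cdk6*, the CIP/KIP inhibitor genes *Cdkn1a* (p21), *Cdkn1b* (p27) and *Cdkn1c* (p57), and the INK4 inhibitor genes *Cdkn2c* (p18) and *Cdkn2d* (p19). They were taken by name and make up 10 of the 55416 genes in the count table. RNA-seq was performed on erythroblasts of 2 stages, S1 and S3, that had been isolated on Ter119 and CD71 from E13.5 mouse foetal livers on a C57BL/6J background. The groups were 4 wild-type (WT) embryos, numbered 0, 1, 5 and 8, 2 heterozygous (Het, *Nprl3*+/-) embryos, 3 and 4, and 2 knockout (KO, *Nprl3*-/-) embryos, 2 and 9. The targeted allele is a constitutive deletion of the *Nprl3* promoter that keeps the α-globin enhancers, so every cell of a KO embryo carried it. Each embryo gave 1 library per stage, 16 libraries in all, and no pooling of animals was described. S1 holds colony-forming erythroid progenitors (CFU-E) and S3 basophilic erythroblasts.

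D-type cyclins bind CDK4 and CDK6, and these kinases phosphorylate the retinoblastoma protein so that E2F factors can switch on the genes of DNA replication. INK4 proteins bind CDK4 and CDK6 themselves and keep cyclin D away from them, whereas CIP/KIP proteins bind cyclin-CDK complexes and are best known as inhibitors of CDK2. Erythroblasts divide a limited number of times while they fill with haemoglobin and then leave the cell cycle before the nucleus is lost, and cyclin D3 and CDK6 are known to act in setting when those divisions end.

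Library totals lay between 23331156 and 36035368 counts at S1, and between 20666044 and 37609502 at S3. *Nprl3*, the targeted gene and a subunit of the GATOR1 complex, had normalised counts of 815, 648, 711 and 1043 in the WT libraries at S1, 381 and 389 in Het and 9.54 and 20.2 in KO. At S3 the same gene stood at 5138, 4409, 4495 and 6592 in WT, 4728 and 3886 in Het and 3386 and 3604 in KO. KO fell below WT at S1 (log2 difference −5.72 ± 0.43 standard error, SE, edgeR adjusted p = 0.0212), as its labels say. At S3 both KO libraries were lower than every WT library, but the difference did not pass the test (−0.55, adjusted p = 0.381), and the counts do not separate transcripts by start site. The early erythroid markers *Kit*, *Gata2*, *Myb* and *Cd34* summed to 4693 to 7175 in WT at S1 and 54.2 to 142 at S3. Globin took 0.0738% to 1.07% of the counts at S1 and 10.0% to 11.9% at S3. The S1 libraries of WT embryos 0 and 8, both male, stood apart from the other 6, with globin shares of 1.07% and 1.00%. Their summed neutrophil and granule markers were 6070.2 and 3747 against 34220.3 to 51119 in the others, and their summed hepatoblast markers were the highest at S1. Member values that moved most without these embryos are also given without them. In bulk RNA, fewer cells of a type and less RNA per cell cannot be told apart, and each level is relative to the RNA of its library.

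Promoters are shown for 6 members whose S1 and S3 libraries did not overlap, as the regions in front of genes that moved in opposite directions during maturation. The sequences are from RefSeq (GRCm38.p6), run from 250 bases before the transcription start to 50 after it, and each matched the mm39 genome exactly at 1 place, whose coordinates are given. Of the 10 members, 7 have an entry in that table, and *Ccnd1*, *Ccnd2* and *Cdkn1c* are named only, while *Cdkn1a*, whose stages overlapped, is not shown. Capitals mark matches, on either strand, to 4 short motifs: the GATA factor motif AGATAA, the KLF factor motif CCNCNCCC, the E2F motif TTTNNCGC and the E-box CACGTG, read by MYC and USF factors. Among the 32851 promoters of the table, 11.2% hold the first, 49.5% the second, 5.17% the third and 7.15% the fourth. The promoters of the 2 kinase genes, whose RNA fell, come first.
Cdk4, chr10:126899154-126899453, plus strand: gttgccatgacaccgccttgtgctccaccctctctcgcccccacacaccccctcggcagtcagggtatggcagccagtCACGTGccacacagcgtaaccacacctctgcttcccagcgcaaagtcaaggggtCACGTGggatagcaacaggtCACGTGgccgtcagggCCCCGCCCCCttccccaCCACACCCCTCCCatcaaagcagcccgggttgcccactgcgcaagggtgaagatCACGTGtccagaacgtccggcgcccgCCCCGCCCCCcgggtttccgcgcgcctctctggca
Cdk6, chr5:3393643-3393942, plus strand: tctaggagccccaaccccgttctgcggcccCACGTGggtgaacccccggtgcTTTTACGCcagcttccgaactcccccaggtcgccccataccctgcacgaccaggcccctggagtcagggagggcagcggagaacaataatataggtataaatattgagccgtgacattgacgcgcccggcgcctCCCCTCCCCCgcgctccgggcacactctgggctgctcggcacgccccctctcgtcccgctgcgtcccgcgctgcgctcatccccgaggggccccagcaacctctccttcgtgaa
Those of 4 genes whose RNA rose follow, with both entries of *Ccnd3* and the upstream entry of *Cdkn2c*.
Ccnd3, upstream start, chr17:47815726-47816025, plus strand: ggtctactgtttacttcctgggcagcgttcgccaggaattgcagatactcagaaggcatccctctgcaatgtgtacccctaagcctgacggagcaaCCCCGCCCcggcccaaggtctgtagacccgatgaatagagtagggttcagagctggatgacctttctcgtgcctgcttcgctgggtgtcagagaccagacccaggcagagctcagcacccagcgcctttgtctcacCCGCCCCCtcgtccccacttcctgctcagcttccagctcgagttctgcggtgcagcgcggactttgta
Ccnd3, downstream start, chr17:47904142-47904441, plus strand: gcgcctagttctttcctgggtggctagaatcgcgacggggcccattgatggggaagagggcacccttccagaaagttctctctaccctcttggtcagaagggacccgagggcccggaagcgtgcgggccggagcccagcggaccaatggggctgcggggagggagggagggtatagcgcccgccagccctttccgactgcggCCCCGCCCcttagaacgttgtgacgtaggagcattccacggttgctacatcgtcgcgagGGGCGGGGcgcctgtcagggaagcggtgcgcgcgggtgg
Cdkn1b, chr6:134897114-134897413, plus strand: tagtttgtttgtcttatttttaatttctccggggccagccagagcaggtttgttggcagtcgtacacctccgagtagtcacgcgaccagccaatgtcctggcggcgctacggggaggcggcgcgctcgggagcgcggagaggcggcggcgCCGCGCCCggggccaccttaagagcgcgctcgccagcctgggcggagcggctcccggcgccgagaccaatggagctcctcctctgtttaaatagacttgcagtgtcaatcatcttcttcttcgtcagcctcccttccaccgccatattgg
Cdkn2c, upstream start, chr4:109523904-109524203, minus strand: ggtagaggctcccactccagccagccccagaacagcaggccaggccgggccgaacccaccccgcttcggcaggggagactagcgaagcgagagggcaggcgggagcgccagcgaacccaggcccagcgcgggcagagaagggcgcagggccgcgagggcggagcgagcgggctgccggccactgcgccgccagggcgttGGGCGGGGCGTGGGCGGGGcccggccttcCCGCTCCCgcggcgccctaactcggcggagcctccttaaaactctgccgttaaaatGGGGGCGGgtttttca
Cdkn2d, chr9:21202456-21202755, minus strand: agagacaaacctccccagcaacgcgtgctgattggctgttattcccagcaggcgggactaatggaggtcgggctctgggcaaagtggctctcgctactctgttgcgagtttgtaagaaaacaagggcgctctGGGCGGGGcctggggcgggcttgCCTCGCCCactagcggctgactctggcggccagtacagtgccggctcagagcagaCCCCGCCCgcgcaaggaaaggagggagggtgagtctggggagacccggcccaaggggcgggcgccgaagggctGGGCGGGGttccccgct
The *Cdk4* promoter holds CACGTG 4 times and the *Cdk6* promoter once, and none of the 5 sequences of the genes that rose holds it. The downstream entry of *Cdkn2c*, not printed, holds it once. Only the *Cdk6* promoter holds TTTNNCGC and none of these 7 holds AGATAA, while all 7 hold CCNCNCCC, from 1 match in *Cdkn1b* to 6, some of them overlapping, in *Cdk4*. A match describes the letters and is not evidence of binding.

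This comparison asks how RNA of the G1 machinery differs between cells sorted as S1, which holds CFU-E, and as S3, basophilic erythroblasts. The S1 libraries also held neutrophil and granule markers, summing to 3747 to 39590 in WT, 46995 to 47484 in Het and 48691 to 51119 in KO. Their part in the members' stage changes was not tested. In WT, 6 members rose, 3 fell and *Ccnd1* did not pass the test, and all 10 were tested. Among all 13514 genes tested, 30.6% rose and 35.0% fell, so a call alone says little about a member. The members' changes ran from −6.05 (*Cdk6*) to 5.93 (*Cdkn2d*) on the log2 scale, with a median of 1.42 beside −0.08 over all genes. In Het 6 rose and 4 fell, where 36.3% of 13085 genes rose and 39.6% fell. In KO 5 rose and 3 fell, where 24.7% of 13446 genes rose and 28.4% fell. Every member that was called in more than 1 genotype moved the same way in each.

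**Figure D1:**
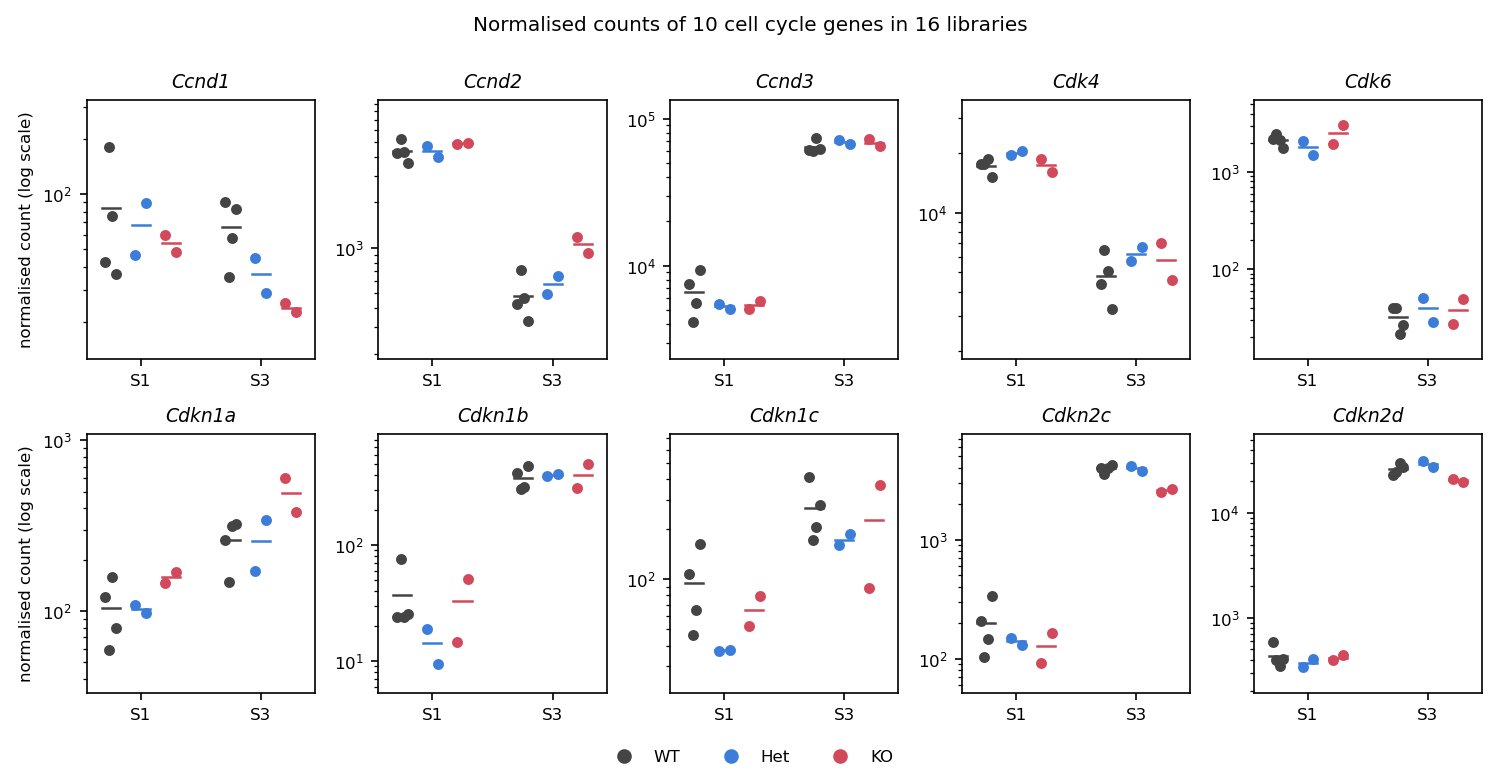
Normalised counts on a log scale for the 10 genes, by stage and genotype (WT grey, Het blue, KO red). Each point is 1 library and each bar a group mean. *Cdk6*, *Ccnd2* and *Cdk4* were lower in every S3 library than in any S1 library, and *Ccnd3*, *Cdkn1b*, *Cdkn2c* and *Cdkn2d* higher.

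The D-type cyclins parted ways between the stages, *Ccnd2* falling and *Ccnd3* rising in each genotype. *Ccnd2* (ENSMUSG00000000184.13, chromosome 6, 127102125 to 127129156, minus strand) encodes the D-type cyclin typical of growth factor-driven progenitors. Its normalised counts at S1 were 4259, 5282, 4339 and 3633 in WT, 4738 and 4011 in Het and 4871 and 4949 in KO. At S3 they were 426, 713, 466 and 330.4 in WT, 498 and 654 in Het and 1188 and 928 in KO. The stages did not overlap, and *Ccnd2* fell 9.05-fold in WT (log2 fold change −3.18 ± 0.25 SE, edgeR adjusted p = 2.63e-06), 7.59-fold in Het and 4.7-fold in KO.

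*Ccnd3* (ENSMUSG00000034165.17, chromosome 17, 47815976 to 47910616, plus strand) encodes a D-type cyclin known for its role in erythroblast division. It was counted at 7567, 4164, 5570.1 and 9324 in WT, 5514 and 5053 in Het and 5095 and 5725 in KO at S1. By S3 its counts were 61085, 60226, 74286 and 62284 in WT, 71405 and 66904 in Het and 72386 and 64972 in KO. It rose 9.79-fold in WT (3.29 ± 0.24, adjusted p = 1.65e-06), 13.1-fold in Het and 12.5-fold in KO. The 2 highest S1 libraries were those of WT embryos 0 and 8, which had the most globin, and without them the WT rise was 3.78 on the log2 scale.

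*Ccnd1* (ENSMUSG00000070348.6, chromosome 7, 144483668 to 144493662, minus strand), the D-type cyclin of many epithelial and other tissues, was scarce throughout. Its S1 counts were 42.6, 181, 76.0 and 36.8 in WT, 46.7 and 89.5 in Het and 59.5 and 48.1 in KO, the highest value being that of WT embryo 1. At S3 it had 90.0, 35.4, 57.7 and 82.6 in WT, 44.9 and 28.7 in Het and 25.4 and 22.6 in KO. Its stage change was −0.36 in WT (95% interval −1.55 to 0.83, adjusted p = 0.575), −0.87 in Het (adjusted p = 0.0439) and −1.17 in KO (adjusted p = 0.0678), and the call was made in Het. The WT value depended on the embryos kept: it was 0.57 without embryo 1, and without embryos 0 and 8 it was −1.47 (adjusted p = 0.0418). The Het call was lost with DESeq2 (adjusted p = 0.175) and with all 16 libraries in the fit (0.283), and the change was −1.66 in embryo 4 and −0.07 in embryo 3. About 23.4% of its exon bases also lie in exons of a gene on the other strand, and reads there were not counted.

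Per kilobase of exon, with counts scaled to length and library size (RPKM), *Ccnd3* made 59.8% ± 12 of the cyclin D level in WT at S1 and *Ccnd2* 38.6% ± 11 (SD, n = 4). The *Ccnd3* share was 65.1%, 44.2%, 57.1% and 73.0% in WT embryos 0, 1, 5 and 8, and *Ccnd2* led in embryo 1 (52.3%). The mean *Ccnd3* share at S1 was 55.7% in Het and 53.6% in KO (n = 2 each). At S3 *Ccnd3* made 99.1% ± 0.22 in WT, 99.1% ± 0.16 in Het and 98.5% ± 0.14 in KO (n = 2 in each of the last). The summed cyclin D level rose with *Ccnd3*, from 42.9, 34.8, 36.1 and 47.2 to 228, 225, 277 and 232 RPKM in the 4 WT embryos.

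*Cdk6* (ENSMUSG00000040274.12, chromosome 5, 3391485 to 3581008, plus strand), a kinase abundant in haematopoietic progenitors, showed the largest fall of the 10 members in each genotype. It had normalised counts of 2161, 2455, 2118 and 1779 in WT, 2092 and 1488 in Het and 1952 and 3056 in KO at S1. At S3 only 39.7, 39.6, 21.2 and 26.8 were left in WT, 50.3 and 28.7 in Het and 27.4 and 48.8 in KO. The fall was 66.5-fold in WT (−6.05 ± 0.26, adjusted p = 2.15e-07), 45.5-fold in Het and 65.8-fold in KO. Neutrophil and granule markers fell between the stages too, from summed normalised counts of 3747 to 39590.0 in WT at S1 down to 38.9 to 155 at S3, and all 10 that were tested were called lower. WT embryos 0 and 8, which had few of these transcripts at S1, had *Cdk6* at 2161 and 1779, and embryos 1 and 5 at 2455 and 2118. Without embryos 0 and 8 the WT change was −6.26, and the part of the neutrophil-lineage transcripts in it was not tested.

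*Cdk4* (ENSMUSG00000006728.13, chromosome 10, 126899403 to 126903789, plus strand), the partner kinase, stayed well expressed. Its S1 counts were 17648, 17544, 18637 and 15076 in WT, 19509 and 20545 in Het and 18689 and 16024 in KO. The S3 libraries had 4355, 6486, 5098 and 3284 in WT, 5683 and 6693 in Het and 7044 and 4565 in KO. It fell 3.59-fold in WT (−1.84 ± 0.21, adjusted p = 2.56e-05), 3.24-fold in Het and 3.03-fold in KO. Per length it made 97.2% ± 0.25 of the *Cdk4* and *Cdk6* level in WT at S1 and 99.8% ± 0.051 at S3 (SD, n = 4). About 19.7% of its exon bases overlap exons of *Tspan31* on the other strand and were not counted.

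*Cdkn2d* (ENSMUSG00000096472.3, chromosome 9, 21199706 to 21202703, minus strand), which encodes p19-INK4d, showed the largest rise of the members in each genotype. Its normalised counts at S1 were 590.2, 397, 351 and 403 in WT, 342 and 401 in Het and 395 and 441 in KO. At S3 it reached 23206, 24700.3, 30047 and 27671 in WT, 31349.6 and 27379.6 in Het and 21309.6 and 19922 in KO, with the KO libraries below every WT and Het library. The rise was 60.8-fold in WT (5.93 ± 0.23, adjusted p = 1.78e-07), 79.2-fold in Het and 48.7-fold in KO.

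*Cdkn2c* (ENSMUSG00000028551.15, chromosome 4, 109518073 to 109524386, minus strand), which encodes p18-INK4c, followed. It had 207, 103, 147 and 334 in WT at S1, 149 and 130.0 in Het and 91.7 and 165 in KO. S3 libraries held 3984, 3571, 4011 and 4250.2 in WT, 4175 and 3774 in Het and 2513 and 2647 in KO. It rose 20.3-fold in WT (4.34 ± 0.32, adjusted p = 1.86e-06), 28.3-fold in Het and 19.7-fold in KO. As for *Ccnd3*, WT embryos 0 and 8 had the highest S1 values, and without them the WT rise was 4.92 on the log2 scale.

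The other 2 INK4 genes were next to silent. *Cdkn2a* had a count of 0 in all 16 libraries, which allows up to 0.0798 to 0.145 CPM depending on the library, for counting error only. *Cdkn2b* had raw counts of 2 to 19 in WT at S1 and 0 to 4 at S3, and was below the filter in each stage comparison.

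*Cdkn1b* (ENSMUSG00000003031.15, chromosome 6, 134897364 to 134902476, plus strand), which encodes p27 and is known to rise as many cells leave the cycle, had S1 counts of 24.1, 75.9, 24.1 and 25.6 in WT, 18.9 and 9.47 in Het and 14.7 and 51.2 in KO. At S3 the counts were 418, 304, 316 and 475 in WT, 394 and 409 in Het and 309 and 499.9 in KO. It rose 9.98-fold in WT (3.32 ± 0.42, adjusted p = 6.5e-05), 27.1-fold in Het and 12-fold in KO. The stages did not overlap, and the size of the rise moved with single libraries. Without WT embryo 1, whose S1 value was far above the other 3, the WT rise was 4.04, and without embryos 0 and 8 it was 2.61, on the log2 scale. Het embryo 4 alone gave 5.39 and KO embryo 2 alone 4.38.

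*Cdkn1a* (ENSMUSG00000023067.15, chromosome 17, 29309950 to 29319701, plus strand), which encodes p21 and is a classical target of p53, was counted at 120.3, 59.3, 159 and 79.5 in WT, 108 and 97.3 in Het and 146 and 170.2 in KO at S1. At S3 there were 259, 147, 317 and 324 in WT, 171 and 343 in Het and 603 and 381 in KO. The stages overlapped in WT, where S3 embryo 1 lay below S1 embryo 5. *Cdkn1a* rose 2.51-fold in WT (1.33 ± 0.36, adjusted p = 0.00721), 2.49-fold in Het (adjusted p = 6.59e-05) and 3.07-fold in KO (adjusted p = 0.00684). Embryo 3 alone gave 0.64 in Het and embryo 4 1.79, on the log2 scale and with no test. The WT call was lost without embryos 0 and 8 (1.09, adjusted p = 0.121). Macrophage markers also moved between the stages: 10 of 13 tested were called higher in WT, 9 of 12 in Het (2 lower) and 1 of 12 in KO (3 lower). In these fits 30.6%, 36.3% and 24.7% of all genes were called higher and 35.0%, 39.6% and 28.4% lower. The part of these markers in the rises of *Cdkn1a* and *Cdkn1b* was not tested.

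*Cdkn1c* (ENSMUSG00000037664.14, chromosome 7, 143012076 to 143014787, minus strand) encodes p57 and is imprinted, with the maternal copy active. About 30.6% of its exon bases overlap exons of *Gm44732* on the other strand, the largest such share among the members, and reads there were not counted, so its RPKM is a low estimate. It had 107, 46.2, 65.5 and 163 in WT, 37.2 and 37.9 in Het and 52.1 and 79.1 in KO at S1. In the S3 libraries it had 412, 173, 205 and 279 in WT, 159.9 and 186 in Het and 88.1 and 368 in KO, so that the KO embryos spanned nearly the whole range. It rose 2.84-fold in WT (1.51 ± 0.40, adjusted p = 0.00708) and 4.6-fold in Het (adjusted p = 1.04e-07). In KO its change of 1.78 did not pass (adjusted p = 0.0725). It passed without the filter on low counts, with DESeq2 (adjusted p = 0.0138), with all 16 libraries in the fit (0.0257) and with the embryo as a replicate block (0.00677), which with 1 female and 1 male KO embryo is the same fit as sex as a covariate, but not with RLE size factors or when scaling left globin genes out. The single KO embryos gave 0.75 (embryo 2) and 2.19 (embryo 9).

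*Cdkn1c* followed the hepatoblast markers in some libraries and not in others. These 14 genes, which include *Afp* and *Alb*, were all detected in all 16 libraries, and their summed normalised counts were 2044 to 11313 in WT, 1015 to 1538 in Het and 1219 to 5748 in KO at S1, and 7004 to 30878, 5139.9 to 6906 and 3282 to 8364 at S3. At S1 the 3 libraries with the most *Cdkn1c*, WT 8, WT 0 and KO 9, were also the 3 with the most of these transcripts. At S3, WT 0 was highest and KO 2 lowest in both, but KO 9, second in *Cdkn1c* (368), stood below 3 WT libraries in the markers (8364), and WT 1, above KO 9 in the markers (9392), had less *Cdkn1c* (173) than the other WT libraries. Of the 14 markers, 6 were called higher at S3 in WT, 11 in Het and 0 in KO (edgeR, smallest adjusted p = 0.120), where 30.6%, 36.3% and 24.7% of all genes were, and their part in the *Cdkn1c* result was not tested.

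**Figure D2:**
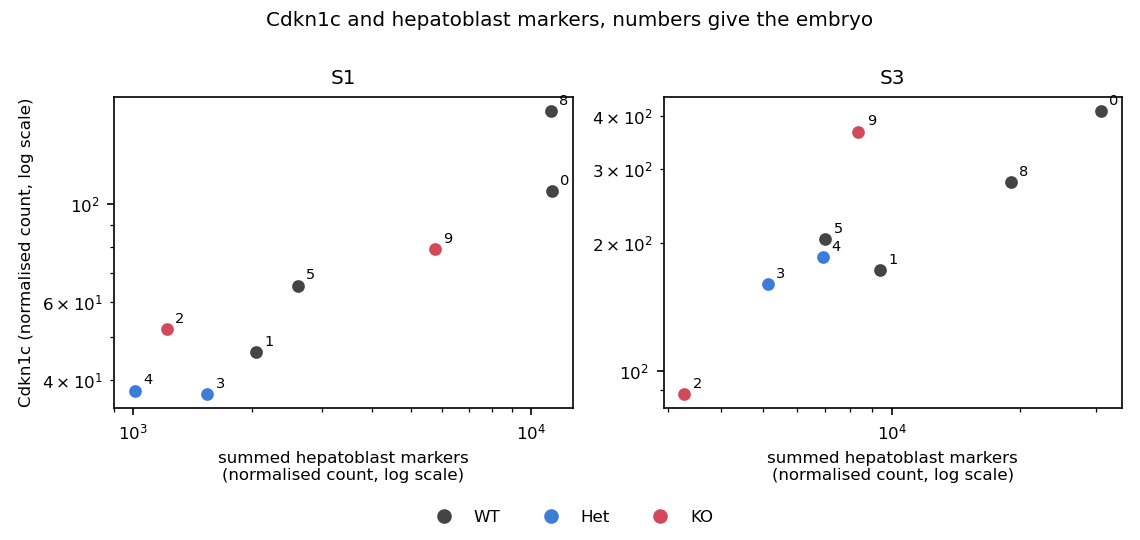
Normalised counts of *Cdkn1c* against the summed normalised counts of 14 hepatoblast markers at S1 (left) and S3 (right), both axes on a log scale. Each point is 1 library, coloured by genotype and numbered by embryo. WT 0 and WT 8 lie at the high end of both measures at S1, and KO 2 at the low end of both at S3.

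**Figure D3:**
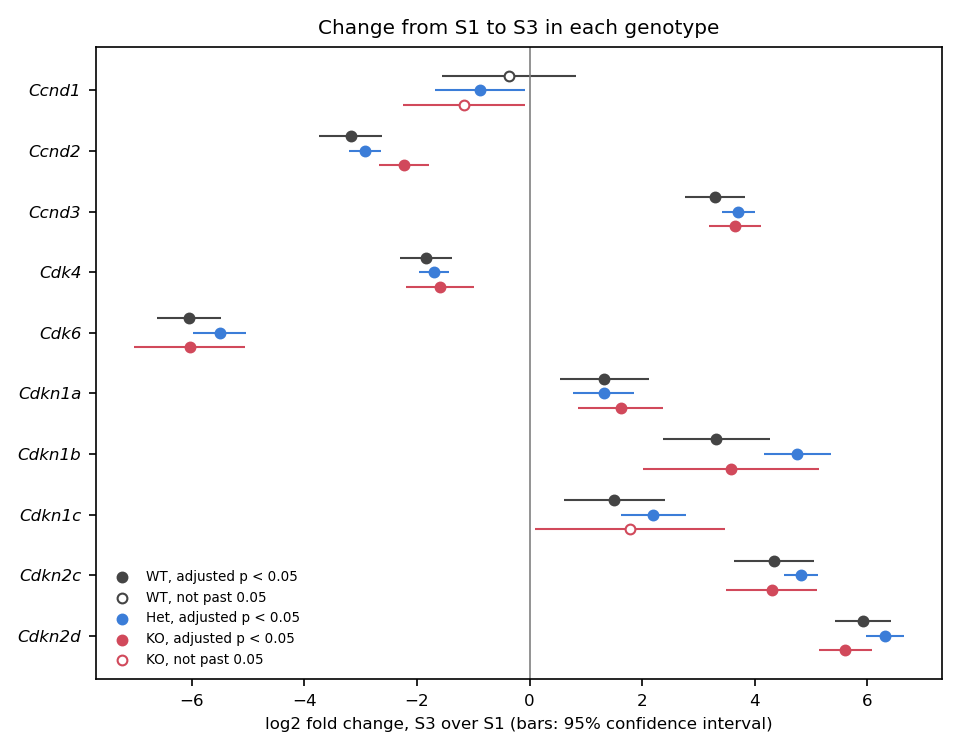
Log2 fold change from S1 to S3 for each gene in WT (grey), Het (blue) and KO (red) from edgeR, with 95% confidence intervals. Filled points passed an adjusted p of 0.05, and open points (*Ccnd1* in WT and KO, *Cdkn1c* in KO) did not.

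By RPKM, the order of the members turned over between the stages. In WT at S1, *Cdk4* led at 172 RPKM, followed by *Ccnd3* (24.6), *Ccnd2* (15.1), *Cdkn2d* (8.97) and *Cdk6* (4.93). *Ccnd3* and *Ccnd2* overlapped between libraries, as did each neighbouring pair from *Cdkn2c* (2.39) down through *Cdkn1c*, *Cdkn1a* and *Ccnd1* to *Cdkn1b* (0.266), while the other neighbours did not. At S3 *Cdkn2d* led at 544 RPKM, then *Ccnd3* (238), then *Cdk4* (48.0) and *Cdkn2c* (47.7), which overlapped. *Cdkn1c*, *Cdkn1b*, *Cdkn1a* and *Ccnd2* lay between 4.25 and 1.67 RPKM with overlapping neighbours, *Ccnd1* stood apart at 0.457 and *Cdk6* was last at 0.0738 RPKM. The order depends on the exon lengths used. By normalised counts in WT, *Ccnd3* (mean 64470) stood above *Cdkn2d* (26406) at S3, without overlap. At S1 *Cdk6* (2128) likewise stood above *Cdkn2d* (435).

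The summed level of *Cdk4* and *Cdk6* went from 181, 181, 191 and 155 RPKM in the WT embryos at S1 to 43.6, 64.8, 50.9 and 32.8 at S3. That of *Cdkn2c* and *Cdkn2d* went from 14.7, 9.43, 8.99 and 12.3 to 526, 552, 668 and 621. INK4 transcripts were far fewer than those of their kinase targets at S1 and outnumbered them at S3, at ratios of 0.0809, 0.0521, 0.0471 and 0.0797 and then 12.1, 8.52, 13.1 and 18.9 in WT. In Het the ratio went from 0.0443 and 0.0472 to 12.3 and 9.12, and in KO from 0.0484 and 0.0663 to 6.67 and 9.69. The KO and WT ratios overlapped at both stages. CIP/KIP genes stayed minor, at 11.9, 6.26, 8.41 and 10.8 RPKM summed in WT at S3. These are RNA levels, and protein was not measured here.

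**Figure D4:**
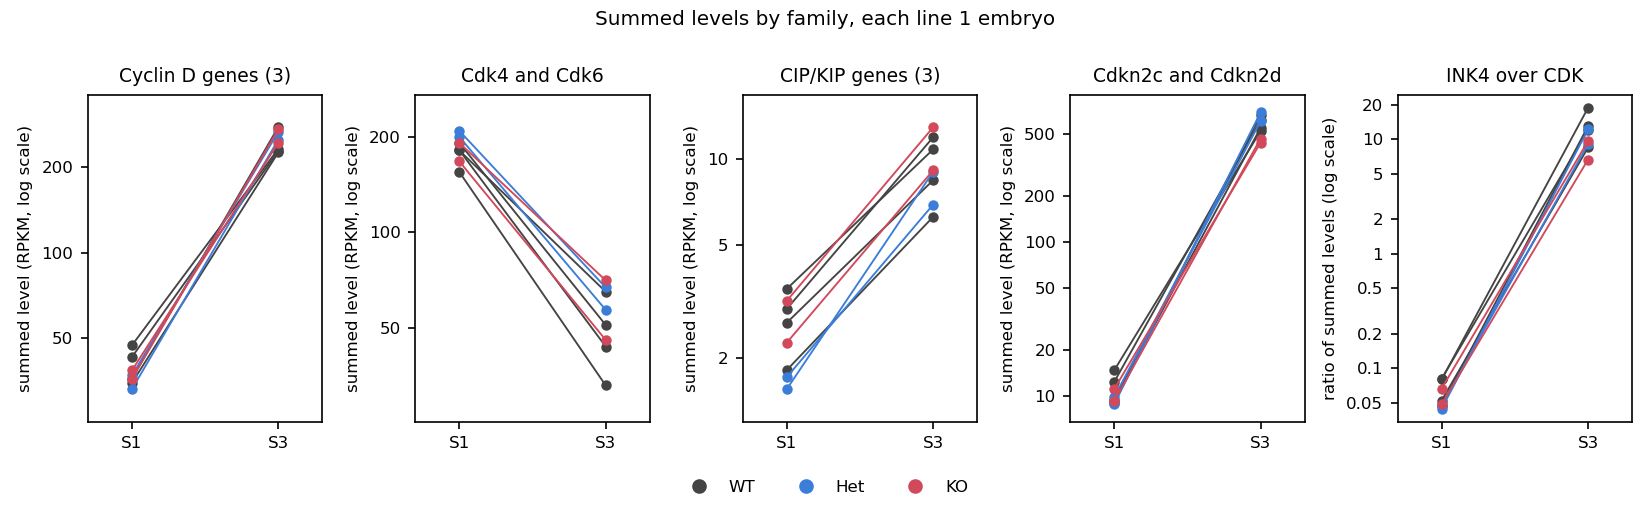
Summed RPKM of the cyclin D, CDK, CIP/KIP and INK4 genes and the ratio of INK4 to CDK levels, on log scales, with each line joining the S1 and S3 libraries of 1 embryo (WT grey, Het blue, KO red). In all 8 embryos the INK4 to CDK ratio was below 0.1 at S1 and above 5 at S3.

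This comparison asks whether KO erythroblasts of the same stage differ from WT. At S3 no member passed the test with edgeR over 11804 genes, of which 0.559% (66) were called. At an unadjusted p under 0.05 there were 5 members, beside 1006 genes in all, and DESeq2 called 2 members and 1.72% of 13861 genes. In these 5 the KO and WT libraries did not overlap: *Ccnd2* and *Cdkn1a* were higher in KO, as were 9.06% of the 12872 genes with a mean normalised count above 10 in these libraries, and *Ccnd1*, *Cdkn2c* and *Cdkn2d* were lower, as were 9.47%.

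*Ccnd2* was higher in both KO libraries than in any WT library, by 1.14 ± 0.27 on the log2 scale (edgeR adjusted p = 0.168), and it passed with DESeq2 (adjusted p = 0.00964), with sex as a covariate (0.00279, where 4.63% of genes were called) and with all 16 libraries in the fit (0.044, 0.776% of genes). *Cdkn2c* was lower in KO, at a difference of −0.60 ± 0.13 (adjusted p = 0.128), and passed with DESeq2 (0.00694) and with sex as a covariate (0.00461). *Cdkn2d*, the other INK4 gene, differed by −0.34 ± 0.15 (adjusted p = 0.583). *Cdkn1a* differed by 0.93 ± 0.32 (adjusted p = 0.397) and *Ccnd1* by −1.44 ± 0.47 (adjusted p = 0.346), the latter on raw counts of 13 in each KO library. With DESeq2 and sex as a covariate, *Cdkn2d* (−0.35, adjusted p = 0.0388) and *Cdkn1a* (0.92, adjusted p = 0.0427) passed as well, in a fit that called 5.72% of 11599 genes. Across the alternatives the adjusted p of *Ccnd2* ran from 5.05e-07 to 0.668 and that of *Cdkn2c* from 3e-06 to 0.705, with no change of sign.

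The remaining members at S3 were *Ccnd3* (0.10, 95% interval −0.22 to 0.43), *Cdk4* (0.29, −0.33 to 0.90), *Cdk6* (0.27, −0.73 to 1.27), *Cdkn1b* (0.11, −0.48 to 0.71) and *Cdkn1c* (−0.21, −1.41 to 0.99). Of these the interval was narrowest for *Ccnd3*, the most abundant of the D-type cyclins. Other transcripts also differed between these libraries: macrophage markers summed to 801 to 1202 in KO and 1647 to 3279 in WT, 3 of the 13 tested (*Marco*, *Fcna* and *Lyz2*) were called lower and *Cd163* was at or near 0. Hepatoblast markers summed to 3282 to 8364 in KO and 7004 to 30878 in WT, with a median log2 difference of −1.41 over the 14, beside −1.44 over the 13 macrophage markers, and none called. Early erythroid markers summed to 74.4 to 273 in KO and 54.2 to 142 in WT. Globin took 10.0% and 10.6% of the counts in KO and 10.8% to 11.8% in WT, without overlap. The part of these transcripts and cells in the members' differences was not tested.

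At S1 no member passed, and none had both KO libraries above or both below the WT range (6.59% of 13233 genes had both above it and 3.14% below). None had an unadjusted p under 0.05, beside 355 genes in all. Of 14039 genes, 1 (0.00712%), *Nprl3*, was called with edgeR and 42 with DESeq2. The differences ran from −0.65 (*Ccnd1*) to 0.61 (*Cdkn1a*). *Cdk4* differed by 0.02 (95% interval −0.38 to 0.41) and *Ccnd2* by 0.17 (−0.28 to 0.62). The others were *Ccnd3* at −0.29 (−0.99 to 0.42), *Cdk6* at 0.24 (−0.31 to 0.80), *Cdkn1b* at −0.17 (−1.76 to 1.43), *Cdkn1c* at −0.52 (−1.71 to 0.67), *Cdkn2c* at −0.60 (−1.74 to 0.54) and *Cdkn2d* at −0.05 (−0.67 to 0.57). Without WT embryos 0 and 8, *Ccnd1* was −1.29, *Cdkn1c* 0.22 and *Cdkn2c* 0.034, and the differences of *Ccnd1*, *Ccnd3*, *Cdk4*, *Cdk6*, *Cdkn1b*, *Cdkn1c*, *Cdkn2c* and *Cdkn2d* changed sign when 1 embryo or these 2 were left out. Neutrophil sums at S1 were 48691 to 51119 in KO, above every WT library (3747 to 39590.0). Macrophage sums were also above, at 2102 and 2148 against 1029 to 1751, but the median log2 difference of the 13 markers tested was −0.83. Early erythroid, hepatoblast, megakaryocyte and endothelial sums overlapped. The part of these transcripts in the members' differences was not tested.

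The test of whether the stage change itself differed between KO and WT called 1 of 13485 genes (0.00742%), again *Nprl3*, and no member, with 12 genes called by DESeq2. Differences of the stage change ran from −0.81 (*Ccnd1*) to 0.96 (*Ccnd2*), and *Ccnd2* alone had an unadjusted p under 0.05 (0.0211, edgeR, adjusted p = 1, 95% interval 0.17 to 1.75). Among all 13485 genes tested, 420 had an unadjusted p under 0.05. For *Cdkn2d* the interval was −0.91 to 0.32, which holds a shallower rise as well as a steeper one. The KO fall of *Ccnd2* was not shown to differ from that in WT.

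**Figure D5:**
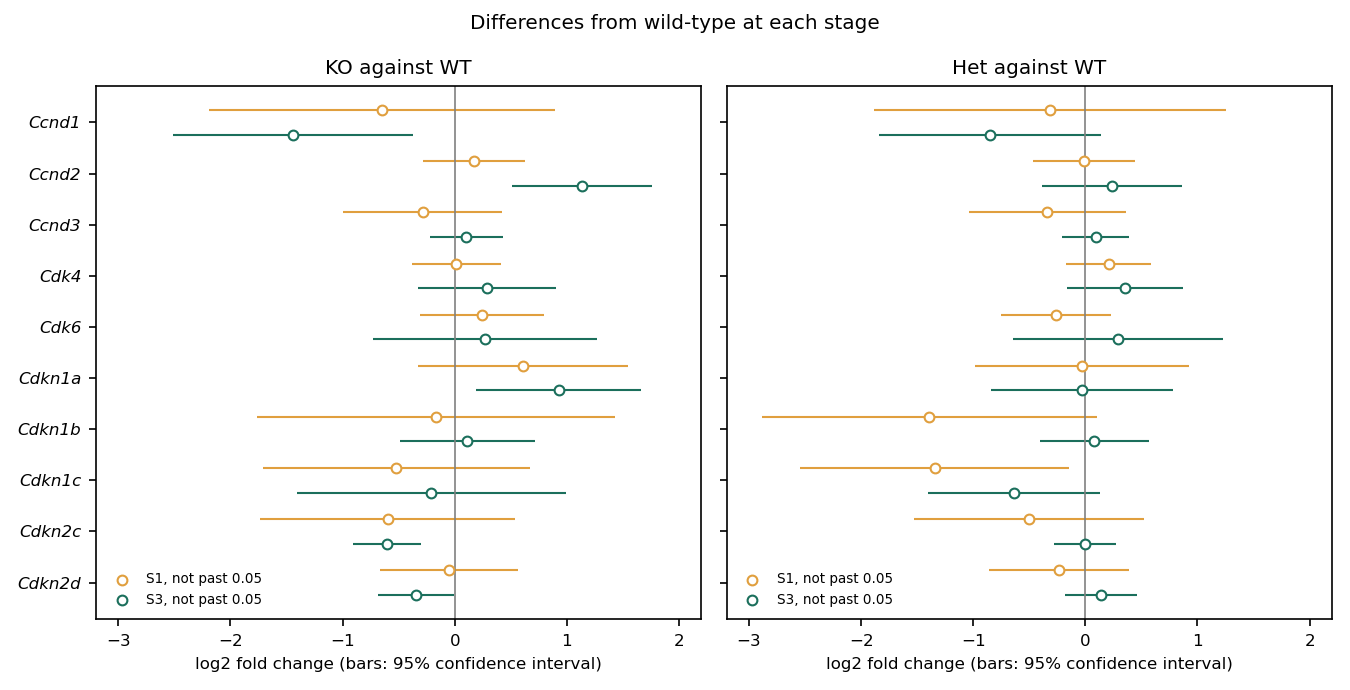
Log2 differences from WT in KO (left) and Het (right) for each gene at S1 (orange) and S3 (green) from edgeR, with 95% confidence intervals. No point passed an adjusted p of 0.05, and the KO intervals at S3 for *Ccnd1*, *Ccnd2*, *Cdkn1a*, *Cdkn2c* and *Cdkn2d* and the Het interval at S1 for *Cdkn1c* leave out 0.

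In Het, *Nprl3* at S1 was lower than in every WT library (log2 difference −1.07, edgeR adjusted p = 0.905). No member was called in Het against WT at either stage, where 0% of 11746 genes at S3 and 0% of 13818 at S1 were called with edgeR (373 and 589 at an unadjusted p under 0.05). DESeq2 called 1 gene at S3 and 30 at S1, none of them a member. At S3 all members overlapped between Het and WT, where 6.79% of 12743 genes lay above the WT range and 6.60% below, with differences from −0.85 (*Ccnd1*) to 0.36 (*Cdk4*). At S1, 3 members did not overlap. *Cdk4* was higher by 0.21, as were 10.9% of 13114 genes, and *Cdkn1b* and *Cdkn1c* were lower at −1.39 and −1.35, as were 8.05%. *Cdkn1c* was the 1 member with an unadjusted p under 0.05 (0.0325, edgeR, adjusted p = 0.905), and without WT embryos 0 and 8 its difference was −0.61 at S1 and −0.14 at S3. *Cdkn1b* at S1 was −0.78 without WT embryo 1 and −1.99 without Het embryo 3. No member at S3 had an unadjusted p under 0.05. Both Het embryos were male, as were WT embryos 0 and 8, and with sex as a covariate *Cdkn1c* was called lower in Het at S1 (−1.84, adjusted p = 0.0219) and S3 (−1.02, adjusted p = 0.0148), *Cdk4* higher at S3 (0.68, adjusted p = 0.0129) and *Ccnd1* lower at S3 (−1.24, adjusted p = 0.0474). Since that fit sets Het chiefly against WT embryos 0 and 8, the covariate and these 2 libraries cannot be told apart. It called 18.1% of the 11746 genes at S3 and 2.87% of the 13818 at S1. At S1 the hepatoblast sums in Het (1015 to 1538) lay below every WT library (2044 to 11313) and the neutrophil sums (46995 to 47484) above every one (3747 to 39590.0), and at S3 the hepatoblast sums (5139.9 to 6906) again lay below WT (7004 to 30878). Globin at S1 took 0.104% and 0.137% of the counts in Het and 0.185% to 1.07% in WT. Megakaryocyte sums at S1 (901 to 1048) also lay below WT (1319 to 2382), while early erythroid, macrophage and endothelial sums overlapped. The part of these transcripts in the members' differences was not tested.

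Of 13 Rb and E2F genes, 8 rose and 2 fell in WT, Het and KO alike by count, where 30.6%, 36.3% and 24.7% of all genes tested rose in the 3 genotypes in that order and 35.0%, 39.6% and 28.4% fell. The largest rises in WT were *E2f2* (4.98), an E2F that is abundant in erythroblasts, and *Tfdp2* (3.73), an E2F dimer partner. They were *E2f2* (6.05) and *Tfdp2* (4.06) in Het, and *E2f2* (5.71) and *Rb1* (3.77), the retinoblastoma gene, in KO. *E2f3* (−0.88 in WT, −0.66 in Het, −0.95 in KO) and *E2f6* (−0.83, −0.94 and −0.85) fell. The list median was 1.46 in WT beside −0.08 over all genes.

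Of 18 later cyclins, CDKs and their regulators, 10 rose and 4 fell in WT, 12 and 4 in Het, and 9 and 4 in KO, beside the same shares of all genes. *Cdc25b*, a phosphatase that activates CDK1 (5.34 in WT, 6.75 in Het, 5.95 in KO), and *Ccnb2*, a mitotic cyclin (2.40, 2.38 and 2.25), rose most. *Cdk7*, the CDK-activating kinase (−1.31, −1.43 and −1.20), fell most, followed by its cyclin *Ccnh* in WT (−0.94) and Het (−0.97) and by *Skp2*, which marks p27 for degradation, in KO (−1.10).

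Of 15 p53 targets, 14 were tested in WT, and 5 rose and 6 fell. In Het 5 of 13 rose and 6 fell, and in KO 5 of 14 rose and 5 fell. These counts are near the shares of all genes that moved (30.6% up and 35.0% down in WT, 36.3% and 39.6% in Het, 24.7% and 28.4% in KO). *Btg2* (5.07 in WT, 6.83 in Het, 5.51 in KO) and *Trp53inp1* (3.50, 3.90 and 3.39) rose most. *Zmat3* (−3.30) and *Perp* (−3.10) fell most in WT, and *Perp* and *Phlda3* in Het (−4.24 and −3.24) and KO (−6.00 and −2.71). The list moved both ways, with a median of −0.0334 in WT. Between genotypes, no gene of these 3 lists was called at either stage or in the interaction. The smallest adjusted p for KO against WT at S3 was 0.305, for a p53 target.

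For each member, the 2 genes outside the 10 with the smallest root mean square difference of mean-centred log2 expression over the 16 libraries were found among 13360 genes, as a description that the stages dominate. *Cdk4* lay nearest to *Riox2* (0.096) and *Tsfm* (0.113), the smallest distances of any member. *Cdk6* lay nearest to *Myb* (0.293), a transcription factor of progenitors, and *Gna15* (0.472). *Ccnd3* ran with *Ubac1* (0.151) and *Atg4d* (0.153), *Cdkn2c* with *Dusp1* (0.175) and the blood group gene *Kel* (0.212), and *Cdkn2d* with *Bpgm* (0.280), the red cell bisphosphoglycerate mutase, and *2310003N18Rik* (0.299). *Ccnd2* lay nearest to *Mettl1* (0.261) and *Nle1* (0.289). Among the scarcer members, *Cdkn1c* had *Lima1* (0.243) and *Lrrc8b* (0.308), *Cdkn1b* *4930512B01Rik* (0.326) and *Akap13* (0.386), *Cdkn1a* *Fam221a* (0.332) and *Tapbp* (0.338), and *Ccnd1* *Add3* (0.446) and *Lcp1* (0.454).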

How the data were processed

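RNA-seq counts of S1 and S3 erythroblasts were analysed by genotype, stage and embryo number as the sample labels give them. In the labels, titles give sorted foetal liver, as the methods do, but the tissue field names embryonic stem cells, and the titles were followed. RNA was amplified before library preparation, and cells were few. Per the submitters' notes and file header, the authors mapped reads to mm39 with STAR 2.7.9 and deposited raw counts per gene from featureCounts 1.6.4 (read pairs, strand not used, multi-mapped and overlapping reads left out) with the exon length of each gene, on Ensembl annotation. Of 55416 genes, 54749 were matched to symbols of GENCODE mouse release M39. A further 4 library columns, which match no sample analysed here, were left out.

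Counts were TMM-normalised and tested with edgeR 4.0.16 (quasi-likelihood, R 4.3.3) on the groups compared, without covariates, for genes with a mean normalised count above 10, with Benjamini-Hochberg adjustment at 0.05. Normalised counts in the text are scaled over all 16 libraries. RPKM divides by the exon length in the table. The scripts were tested on simulated data. The alternatives were RLE size factors, scaling without globin genes, no filter, DESeq2 1.42.0, sex as a covariate in either tool, all 16 libraries in the fit, and leaving out each embryo. The S1 and S3 libraries of a number share an animal, and the embryo was a replicate block in another fit. Their deviations from group means correlated at 0.069 to 0.334 in WT, 0.414 in KO and 0.0454 in Het over 13402 genes. The fit without WT embryos 0 and 8 was chosen after seeing the data.

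The members, lists and motifs were chosen with earlier results of these data known. Named genes were the members, *Nprl3*, the 2 largest called rises and falls in each list and comparison, and the 2 nearest profiles of each member. Markers, the other INK4 genes and overlapping genes named beside a result were named outside this rule, after their values were seen. Replicates are separate embryos.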

Additional observations from a re-analysis of the deposited data

Results flagged for a closer look

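Of 20 sets of 4 WT libraries (10 members at 2 stages), 2 held a library far from the other 3 by Dixon's ratio, and chance flags about 1 in 20. *Cdkn1b* had a normalised count of 75.9 in WT embryo 1 at S1, beside 24.1 to 25.6 in the other 3, and the same library had the highest *Ccnd1*. *Ccnd3* had 74286 in WT embryo 5 at S3, beside 60226 to 62284 in the others, and the Het and KO libraries lay between 64972 and 72386.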

How the results depend on the processing

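Each stage call of a member kept its direction under the alternatives run. Calls that changed were *Cdkn1c* in KO (gained without the filter, with DESeq2, with DESeq2 and sex, with all 16 libraries and with the replicate block, the same fit as sex within KO), *Ccnd1* in Het (lost with DESeq2 and with all 16 libraries), and in WT, without embryos 0 and 8, *Ccnd1* (gained) and *Cdkn1a* (lost). With the embryo as a replicate block, 9 members (6 higher, 3 lower) and 9410 genes were called between stages in WT (without the block 8870), 10 and 10038 in Het, and 9 and 9151 in KO (7131), and apart from *Cdkn1c* in KO the block changed no call of a member. The interaction called 0 members and 1 gene with it. Leaving out each embryo, the WT stage change of *Ccnd1* ran from −0.77 to 0.57. In Het and KO that left 1 library per stage, so only folds and no test were obtained, and sex was not run as a covariate within Het, where both embryos were male.

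For KO against WT at S3, called members (0) became 1 without the filter, 2 with DESeq2, 2 with sex, 4 with DESeq2 and sex (*Ccnd2*, *Cdkn1a*, *Cdkn2c* and *Cdkn2d*) and 1 with all 16 libraries. Called genes (66) became 356, 238, 547, 663 and 104 in that order, 5 without WT embryos 0 and 8, and 11 to 42 leaving out each embryo. Leaving out each embryo, *Cdk4* ran from −0.070 to 0.57, *Cdk6* from −0.20 to 0.62, *Cdkn1b* from −0.27 to 0.41 and *Cdkn1c* from −1.57 to 0.47, and *Cdkn1c* was 0.29 without WT 0 and 8. At S1 called genes (1) became 7, 42, 21, 187 and 2 in the same order, 2 without WT 0 and 8, and 0 to 2 leaving out each embryo. Without WT 0 and 8, *Ccnd3* was 0.13, *Cdk4* −0.084, *Cdkn1c* 0.22, *Cdkn2c* 0.034 and *Cdkn2d* 0.14. Leaving out each embryo, *Ccnd1* ran from −0.90 to 0.064, *Cdk4* from −0.10 to 0.11, *Cdk6* from −0.14 to 0.53, *Cdkn1b* from −1.36 to 0.45 and *Cdkn2d* from −0.16 to 0.12.

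For Het against WT at S3, called members (0) became 3 with sex and 2 with DESeq2 and sex. The latter fit tested only 8 of the members and called 2070 of 9203 genes, so its 2 calls alone say little about the members. Called genes (0) became 57 without the filter, 1 with DESeq2, 2124 with sex and 2070 with DESeq2 and sex. They were 8 without WT 0 and 8, and 0 to 3 leaving out each WT embryo. At S1 members became 1 with sex and 1 with DESeq2 and sex, and genes 30 with DESeq2, 397 with sex, 725 with both and 5 without WT 0 and 8. The interaction called 3 genes without the filter, 12 with DESeq2, 22 with DESeq2 and sex and 2 with all 16 libraries, and that of *Ccnd1* was 0.30 without WT 0 and 8. The cause of these shifts was not tested. The log2 changes of *Ccnd1* and *Cdk6* at S3 and *Cdkn1b* at S1 rest on few counts.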
